A study of Mus musculus with 2 samples.

Results

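Rab GTPases are small GTP-binding proteins that mark the membranes of the secretory and endocytic pathways. Their transcripts were examined in MC3T3-E1 cells, a clonal line of mouse pre-osteoblasts derived from newborn calvaria, cultured with formaldehyde at 100 µM or at 300 µM. Members were taken by name alone, as genes whose mouse symbol is Rab followed by a number and at most 1 letter. This rule gave 59 of the 17215 genes listed in each table. RNA was sequenced in 1 library per dose, of the same line with the same agent. The labels name no exposure time and no replicate. Cells without formaldehyde were not analysed here. The values below therefore compare 2 libraries without p-values, since the spread between cultures was not measured.

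A Rab protein cycles between a GDP-bound form held in the cytosol and a GTP-bound form on a membrane. Guanine nucleotide exchange factors (GEFs) load GTP, GTPase-activating proteins (GAPs) speed its hydrolysis, and GDP dissociation inhibitors extract the inactive protein. On the membrane the GTP form recruits effectors such as tethers, motors and coat regulators. Osteoblasts export large amounts of procollagen and other matrix proteins through the endoplasmic reticulum (ER) and Golgi, so the early secretory Rab proteins serve a heavily used route in this lineage. Endocytic Rab proteins direct internalised receptors to recycling or to lysosomes.

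Rab proteins are attached to membranes by lipids on cysteines at or near their end, and the sequence before those cysteines is the part that differs most between family members. In GENCODE release M21, all 59 genes had TGT or TGC, the cysteine codons, among the last 5 codons. The final 45 coding bases, stop codon left out, are shown for members of 3 paralogue groups whose levels diverged between doses, with cysteine codons among the last 5 codons in capitals.
Rab1a: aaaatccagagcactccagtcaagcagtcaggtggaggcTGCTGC
Rab1b: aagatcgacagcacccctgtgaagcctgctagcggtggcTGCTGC
Rab5a: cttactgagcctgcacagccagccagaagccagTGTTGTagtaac
Rab5b: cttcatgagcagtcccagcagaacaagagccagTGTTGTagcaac
Rab5c: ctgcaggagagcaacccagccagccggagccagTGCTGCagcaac
Rab8a: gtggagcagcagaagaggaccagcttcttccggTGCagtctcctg
Rab8b: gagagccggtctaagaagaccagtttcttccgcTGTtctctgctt
Aligned coding sequences were 76.1% identical between Rab1a and Rab1b, 73.5% to 76.6% among the Rab5 genes and 77.5% between Rab8a and Rab8b. No paralogue pair compared in this way shared a 50-base word in its coding sequence. Of the 50-base words of the whole Rab7 transcript, 14.5% occur in transcripts of other genes, most often in its pseudogene Rab7-ps1. For Rab5b 13.0% do so, most often in Gm13991. Part of the reads of Rab7 and Rab5b could thus be divided. In GRCm38, Rab1a lies at chr11:20201432-20226856 and Rab1b at chr19:5099205-5107072.

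The unit of level is FPKM, that is, fragments mapped per kilobase of a transcript and scaled to the size of its library. The low values placed the depth at about 18500000 fragments at 100 µM and 19400000 at 300 µM. Differences are given as log2((FPKM at 300 µM + 1)/(FPKM at 100 µM + 1)), called the log2 ratio, where the mean of both libraries reached 1 FPKM. Paired values are given in the order 100 µM, 300 µM, with the log2 ratio in parentheses. A gene at or beyond 2-fold on this scale is called higher or lower. Over the 10123 genes compared, 6.09% were higher and 29.8% lower at 300 µM, and the median log2 ratio was -0.30. Centring on that median adds 0.30 to each ratio, which gave 14.5% higher and 22.3% lower. Scaling both libraries to equal sums instead moved the median to -0.62, and a trimmed-mean factor (TMM) to 0.05, so 4 scalings were compared: FPKM as deposited, centred, TMM and equal sums. In bulk RNA, fewer cells of a type and less RNA per cell cannot be told apart. Of 12 osteoblast markers 11 had a mean of at least 1 FPKM, with 1 lower (Dlx5, 32.9 and 7.04 FPKM) and 0 higher. Col1a1 stood at 2065 and 1714 FPKM, Runx2 at 7.99 and 3.60 FPKM, Bmp4 at 10.05 and 20.2 FPKM and Alpl at 0.98 and 1.06 FPKM, while Bglap (osteocalcin) was listed at 0 and at 0.49 FPKM. Macrophage, endothelial, adipocyte, muscle and epithelial markers summed to between 0.13 and 27.7 FPKM per list and library, with Lyz2 at 13.2 and 26.5 FPKM, Cd68 at 2.57 and 0.77 FPKM, Acta1 at 3.29 and 10.06 FPKM (higher) and Krt14 at 8.41 and 6.99 FPKM as those with a mean of at least 1 FPKM. Ptprc was at or below 0.05 FPKM, and Epcam, Adgre1, Kdr and Plin1 were listed at 0 in both libraries. The part of other cell types in the results was not tested. Of 4 chondrocyte markers Col2a1 stood at 321.7 and 350.1 FPKM, Sox9 at 61.4 and 9.78 FPKM, Col10a1 at 0.08 FPKM in both, and Acan at 0 in both.

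Of the 59 Rab genes, 41 had a mean of at least 1 FPKM. At 300 µM 3 were higher, or 7.32% against 6.09% of all genes, and 12 were lower, or 29.3% against 29.8%. The shares were thus near those of all genes, and the members' median of -0.22 was near -0.30. After centring 8 were higher and 7 lower, beside 14.5% and 22.3% of all genes. Summed FPKM of all 59 was 1272 at 100 µM and 1188 at 300 µM. The libraries differed in which Rab genes made up that sum: the 4 most abundant held 34.0% of it at 100 µM (Rab7, Rab1a, Rab5c and Rab1b) and 45.4% at 300 µM (Rab1b, Rab7, Rab5c and Rab34). FPKM is given per length, which puts levels of different genes on 1 scale. Over all genes, however, the log2 ratio still fell with transcript length (Pearson's r -0.39). The part of length in these shares was not tested.

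**Figure D1:**
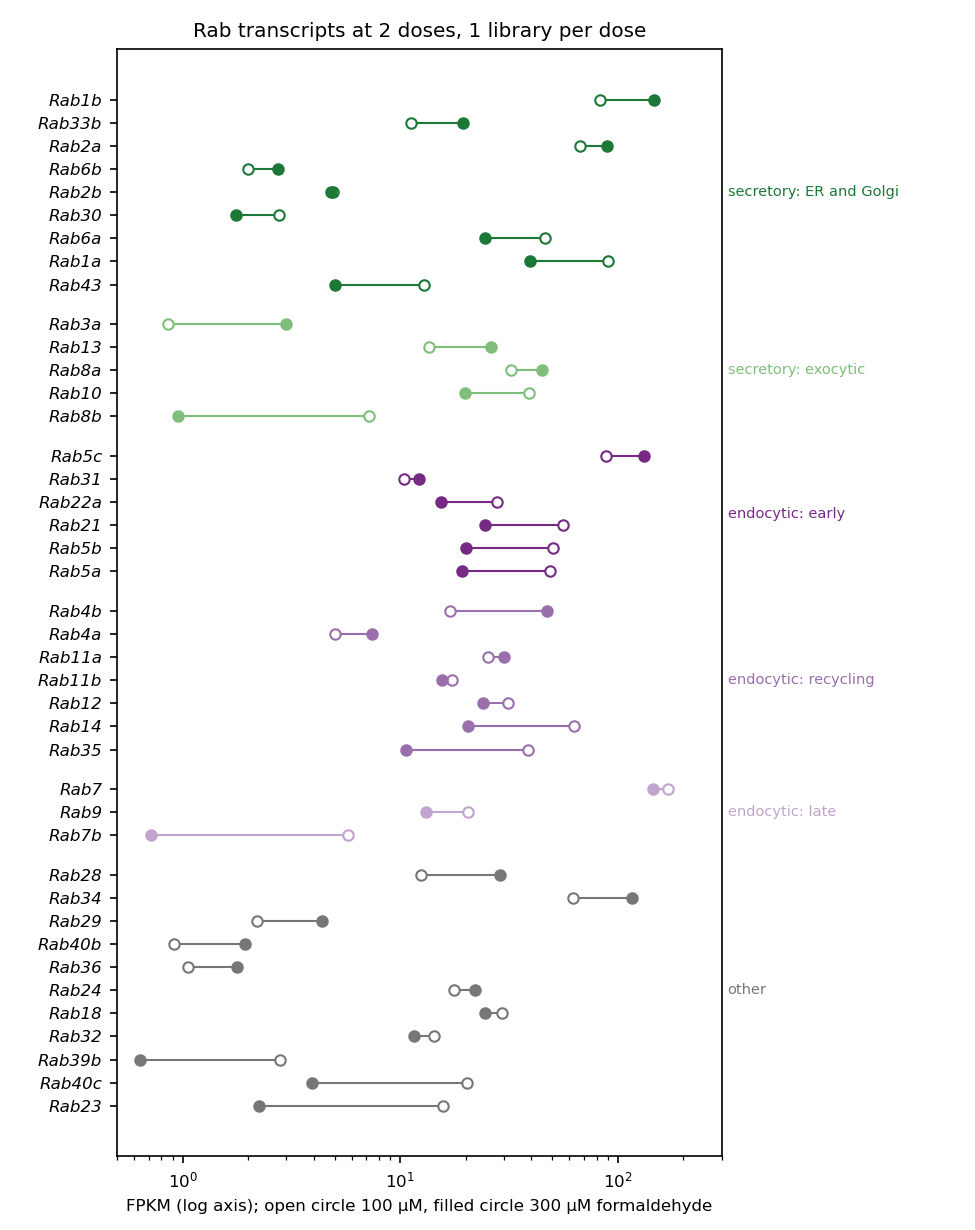
FPKM on a log axis of the 41 compared Rab genes at 100 µM (open circles) and 300 µM (filled circles), grouped by pathway step, 1 library per dose. Within most steps some genes lie to the right and some to the left of their level at 100 µM, for example Rab1b (83.3 to 146.8 FPKM) and Rab1a (90.6 to 39.6 FPKM).

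The ER and Golgi genes of the secretory route split in direction. Rab1a and Rab1b both encode proteins of transport from the ER to the Golgi. Rab1a stood at 90.6 and 39.6 FPKM (-1.17), and Rab1b at 83.3 and 146.8 FPKM (0.81). The pair was thus nearly level at the lower dose, and at the higher dose Rab1b was the most abundant Rab transcript in the library. Rab2a, which acts between the Golgi and the ER, stood at 67.2 and 89.3 FPKM (0.41), and its minor relative Rab2b at 4.92 and 4.80 FPKM (-0.03, a sign that turns after centring). Rab2b is uncertain, because 70.9% of its transcript lies opposite exons of Gm43766 and strand is not stated for the libraries. Rab6a, of retrograde Golgi transport, stood at 46.3 and 24.6 FPKM (-0.89), with 22.03% of its transcript opposite exons of Mrpl48, and Rab6b at 2.01 and 2.76 FPKM (0.32). Rab33b, a Golgi protein that also binds the autophagy protein ATG16L1, stood at 11.2 and 19.4 FPKM (0.75). Rab30, also at the Golgi, was low in both libraries, at 2.78 and 1.77 FPKM (-0.45). Rab43 stood at 12.9 and 5.00 FPKM (-1.21). However, 90.3% of its 50-base words occur in other genes, most often in the overlapping gene Gm45140, so its reads could be divided. By the 2-fold limit 2 of these 9 genes were lower (Rab1a and Rab43), or 22.2% beside 29.8% of all genes, and 0 higher. Centred ratios put Rab1b and Rab33b above the limit and 0 genes below it.

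Genes of exocytosis also differed in both directions. Rab8a, of transport from the Golgi to the plasma membrane and cilium, stood at 32.4 and 44.8 FPKM (0.46). Its relative Rab8b stood at 7.16 and 0.95 FPKM, a linear difference of 7.54-fold and a log2 ratio of -2.07. These values of Rab8b correspond to an estimated 628 and 87 reads. Counting error alone gives an exact 95% interval of -3.26 to -2.59 for its log2 fold without the pseudocount. Rab10, which delivers cargo to the plasma membrane, stood at 39.1 and 19.9 FPKM (-0.94), and Rab13, which acts at cell junctions, at 13.6 and 26.2 FPKM (0.90). Rab3a, known from regulated secretion at synapses, was near the limit of comparison at 0.86 and 2.99 FPKM (1.10), an estimated 25 and 90 reads. The remaining Rab3 genes and the secretory granule genes Rab27a, Rab27b, Rab26 and Rab37 had means below 1 FPKM, the highest single value being 1.23 FPKM for Rab27b at 300 µM.

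Of 6 early endosomal genes 3 (50%) were lower at 300 µM and 0 higher, beside 29.8% and 6.09% of all genes. Rab5 proteins control fusion of incoming vesicles with early endosomes. Rab5a stood at 48.9 and 19.2 FPKM (-1.30), and Rab5b at 50.5 and 20.2 FPKM (-1.28). Rab5c stood at 88.8 and 131.4 FPKM (0.56). Rab5a and Rab5b were thus close to each other at both doses while Rab5c diverged from them. Rab21, which traffics integrins through early endosomes, stood at 55.8 and 24.5 FPKM (-1.16). Rab22a stood at 27.8 and 15.4 FPKM (-0.81), and the related Rab31 at 10.4 and 12.2 FPKM (0.21, a sign that turns on the scale of equal sums). Rab5a, Rab5b and Rab21 were lower by 2-fold, only Rab5a of them after centring and 0 of them with the TMM factor. Rab20 was below the limit, at 0.38 and 0.07 FPKM.

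Recycling genes held both the highest ratio of the family and some of the lowest. Rab4b, of fast recycling to the cell surface, stood at 17.0 and 47.2 FPKM (1.42), a ratio that exceeded those of 98.2% of all compared genes. It is uncertain, since 80.3% of its 50-base words occur in other genes, most often in Gm21983, which overlaps it on the same strand. Its estimated 375 and 1092 reads give a counting interval of 1.303 to 1.647 for the log2 fold without the pseudocount. Rab4a, with no such overlap, stood at 5.03 and 7.42 FPKM (0.48). Rab35, a recycling Rab that also acts in cytokinesis, stood at 38.6 and 10.7 FPKM (-1.77). Rab14, between the Golgi and recycling endosomes, stood at 63.3 and 20.6 FPKM (-1.58). Both were lower by 2-fold under each of the 4 scalings tried. The genes of the slow recycling compartment differed little: Rab11a stood at 25.4 and 29.98 FPKM (0.23) and Rab11b at 17.3 and 15.5 FPKM (-0.15), and for both the sign depends on the scale. Rab12 stood at 31.2 and 24.0 FPKM (-0.37, a sign that turns with the TMM factor). The epithelial recycling genes Rab17 and Rab25, and Rab15, did not exceed 0.15 FPKM in either library.

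Among late endosomal genes the abundant one was nearly level. Rab7, which drives fusion of late endosomes with lysosomes, was the most abundant Rab transcript at 100 µM, at 169.5 FPKM, and stood at 145.3 FPKM at 300 µM (-0.22, or 0.08 after centring). Rab9, of retrieval from late endosomes to the Golgi, stood at 20.5 and 13.1 FPKM (-0.60). Rab7b, a minor relative that acts between endosomes and the Golgi, stood at 5.78 and 0.72 FPKM (-1.98), an estimated 481 and 63 reads. Rab9b was at 0.01 FPKM at 100 µM and listed at 0 at 300 µM.

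Set against each other, secretory genes had higher ratios than endocytic ones at the median, with wide overlap. The 14 secretory genes compared had a median log2 ratio of 0.15 (-2.07 to 1.10), with 1 higher and 3 (21.4%) lower. The 16 endocytic genes had a median of -0.48 (-1.98 to 1.42), with 1 higher and 6 (37.5%) lower. Of all genes 29.8% were lower, between these shares, and 6.09% were higher, beside 7.14% of secretory and 6.25% of endocytic genes. The medians differed by 0.63. Of the endocytic ratios 15 of 16 lay inside the secretory range, and 13 of 14 secretory ratios lay inside the endocytic range. Genes are not replicates, so this is a description of 2 libraries. The secretory median was -0.15 on the scale of equal sums, whereas the difference between the medians was positive in each setting tried, from 0.28 without the filter on level to 0.92 at a mean of at least 10 FPKM. Early endosomal genes had the lowest median (-0.98) and exocytic genes the highest (0.46, over 5 genes). With the trend over transcript length and GC content removed these were -0.08 and 0.63. The lowest and highest medians were then those of the late endosomal (-0.59) and the ER and Golgi genes (0.72). With that trend removed the median of all genes was 0.11.

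Shares of the summed Rab FPKM do not depend on how the libraries are scaled to each other. They were not recomputed with the trend over transcript length and GC content removed. Secretory genes held 32.7% at 100 µM and 36.4% at 300 µM, and endocytic genes 53.2% and 45.3%. Each change turned in 1 of the 3 other class settings tried. Without Rab1b and Rab7, the most abundant gene of each class, the secretory share moved by -0.80 percentage points and the endocytic share by -5.91. With the endocytic class limited to Rab4a, Rab4b, Rab5a, Rab5b, Rab5c, Rab7, Rab9, Rab11a and Rab11b, the endocytic share moved by 1.34 percentage points, and the secretory share, also drawn narrowly, by 2.83. With Rab8a, Rab8b, Rab10 and Rab13 counted as endocytic the moves were 3.18 (secretory) and -7.41 (endocytic). Rab1b itself went from 6.55% to 12.4% of the sum and Rab1a from 7.12% to 3.33%.

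**Figure D2:**
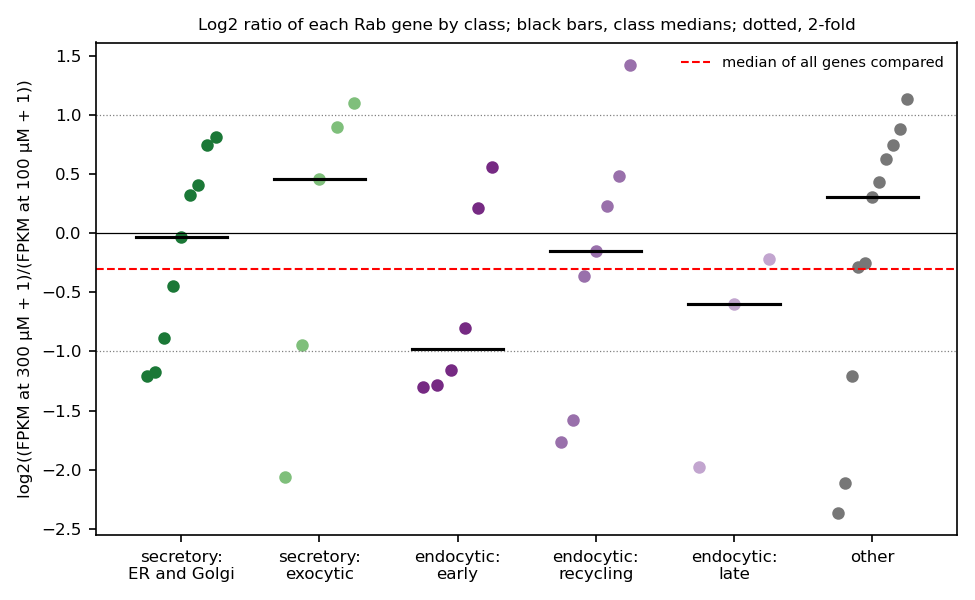
Log2 ratios of the 41 compared Rab genes by pathway step, 1 point per gene, with class medians (black bars), the median of all genes compared (-0.30, dashed red) and the 2-fold limits (dotted). Ratios in the secretory and endocytic classes overlap widely. The early endosomal median is -0.98, and -0.08 with the trend over transcript length and GC content removed (not drawn). With that trend removed the median of all genes is 0.11.

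Rab genes outside both classes included the lowest ratio of the family. Rab23, which represses Hedgehog signalling and acts at the primary cilium, stood at 15.7 and 2.25 FPKM (-2.36), a linear difference of 6.99-fold. Rab40c, whose protein carries a SOCS box and joins a ubiquitin ligase, stood at 20.2 and 3.92 FPKM (-2.11), while its low relative Rab40b stood at 0.91 and 1.94 FPKM (0.62). Rab23 and Rab40c were lower by 2-fold under all 4 scalings. Rab28 stood at 12.5 and 28.7 FPKM (1.13), the only higher gene here, with 0.77 on the scale of equal sums. Rab34, also known from cilia, stood at 62.5 and 116.0 FPKM (0.88), short of the 2-fold limit. Rab18, of lipid droplets and ER, stood at 29.5 and 24.7 FPKM (-0.25), and Rab32, of lysosome-related organelles, at 14.3 and 11.5 FPKM (-0.29), and both signs turn after centring. Rab24, linked to autophagy, stood at 17.8 and 22.1 FPKM (0.30, a sign that turns on the scale of equal sums), with 66.4% of its transcript opposite exons of Prelid1. Rab29, Rab36 and Rab39b stood below 5 FPKM, with log2 ratios of 0.75, 0.43 and -1.21.

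The 18 Rab genes below the limit did not exceed 1.23 FPKM in either library. Rab19, Rab26, Rab37 and Rab38 were listed at 0 in both. Of the 41 compared, Rab3a, Rab40b, Rab7b, Rab8b and Rab39b were below 1 FPKM in 1 library and passed through the other, so that a large ratio was partly given by the limit. Without these 5, 2 of 36 were higher and 9 lower. The shares of all genes with at least 1 FPKM in both libraries were not computed, so these counts have none beside them.

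Close paralogues could differ widely in their ratio between the doses. Of 15 paralogue groups, 10 had at least 2 compared members. Ratios of both signs occurred in 8 of these groups as deposited and in 7 after centring. Rab2 and Rab11 had both signs only before centring, and Rab7 only after it. In 7 of the 10 (Rab1, Rab5, Rab6, Rab7, Rab8, Rab40 and the pair of Rab22a and Rab31) members differed by at least 1 on the log2 scale, and a difference between 2 genes of the same library pair is left as it is by centring. Of these 7, Rab7, Rab8 and Rab40 rest on Rab7b, Rab8b and Rab40b, each of which was below 1 FPKM in 1 library. No such count was made for other gene families. In the Rab1, Rab5 and Rab8 groups the totals differed less than their members did. This is partly arithmetic, since the fold of a total lies between those of its members. Rab1 genes summed to 173.9 and 186.4 FPKM, while the share of Rab1b within them went from 47.9% to 78.8%. Rab5 genes summed to 188.1 and 170.8 FPKM, and the share of Rab5c went from 47.2% to 76.9%. Rab8 genes summed to 39.5 and 45.8 FPKM, with Rab8a at 81.9% and 97.9%. Totals differed more in some other groups: Rab4 went from 22.02 to 54.6 FPKM, mostly Rab4b, and Rab40 from 21.2 to 5.86 FPKM, mostly Rab40c. Rab6 went from 48.34 to 27.36 FPKM, mostly Rab6a, and Rab22a with Rab31 from 38.15 to 27.67 FPKM. The Rab11 total was nearly level, at 42.7 and 45.5 FPKM.

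**Figure D3:**
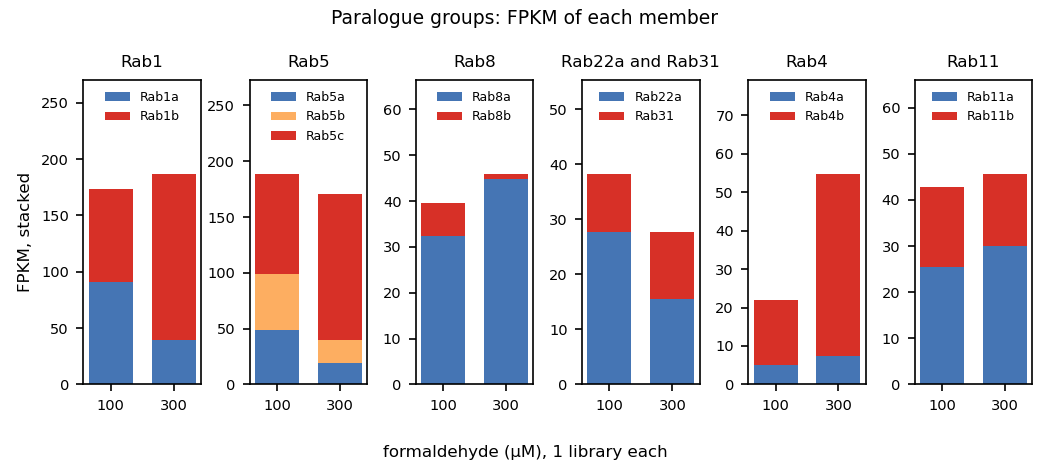
Stacked FPKM of the members of 6 paralogue groups at 100 µM and 300 µM, on a linear axis from 0 for each group, 1 library per dose. The Rab1 bars have similar heights (173.9 and 186.4 FPKM) but Rab1b fills 47.9% of the first and 78.8% of the second.

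Transcript length differed between the members at either end. The 3 higher Rab genes had representative transcripts of 1192 to 1635 bases, and the 12 lower ones of 2366 to 4733 bases. Their 3' UTRs ran from 399 to 797 bases and from 1254 to 4058 bases. Transcripts of the 26 Rab genes between ran from 1107 to 9456 bases. Over all genes, transcripts of higher genes ran from 354 to 11847 bases (median 1893). Those of lower genes ran from 472 to 123179 bases (median 3900), so the calls overlapped widely there. In 9 of the 10 paralogue groups the member with the highest ratio had the shortest transcript. The exception was Rab6, where Rab6b at 5007 bases had a higher ratio than Rab6a at 3214 bases. In Rab8 the lengths were close, at 4550 bases for Rab8a and 4733 for Rab8b. This count was not made for other gene families. Across the 41 genes, Pearson's r between the log2 ratio and log2 transcript length was -0.50 and Spearman's rho was -0.54. Over all compared genes with a length (10093) these were -0.39 and -0.41, so the relation is not particular to Rab genes. The 3' UTR length gave -0.53 and -0.54 over the members, and -0.30 and -0.35 over all genes; coding length gave 0.05 and 0.14 over the members, and -0.25 and -0.26 over all genes. GC content gave 0.38 and 0.43 over the members, and 0.15 and 0.16 over all genes. Genes are not independent replicates and share these libraries, so the coefficients are descriptions.

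The same pattern appeared by length class. Of 6 Rab genes with transcripts under 1500 bases, 1 was higher and 0 lower, with a median of 0.61 beside 0.52 for all genes of that length, of which 9.84% were lower. From 1500 to below 2500 bases 2 of 12 were higher (16.7%) and 1 lower (8.33%), with a median of 0.48 beside 0.02. Of all genes of that length 7.34% were higher and 18.4% lower. From 2500 to below 3500 bases 0 of 11 were higher and 6 lower, or 54.5% beside 30.97% of all genes, with a median of -1.17 beside -0.40. At 3500 bases and over 0 of 12 were higher and 5 lower, or 41.7% beside 44.2% of all genes, with a median of -0.87 beside -0.84. Removing the trend with length and GC content over all genes left a median of 0.40 for Rab genes, 0.67 for secretory and -0.07 for endocytic ones. All genes then had a median of 0.11 in place of -0.30, so the removal also shifted the ratios as a whole. The share of all genes called after the removal was not computed, so the counts after it have none beside them. Of the 12 lower Rab genes 5 were still lower by 2-fold: Rab23 (-1.65), Rab40c (-1.79), Rab35 (-1.38), Rab7b (-1.28) and Rab8b (-1.15). The other 7 no longer reached the limit: Rab1a (-0.62), Rab5a (-0.87), Rab5b (-0.79), Rab14 (-0.99), Rab21 (-0.32), Rab43 (-0.51) and Rab39b (-0.48). Of these, Rab1a, Rab5b, Rab21, Rab43 and Rab39b also fell short of the limit after centring alone. The higher genes Rab4b (1.25), Rab28 (1.24) and Rab3a (1.09) kept their call. Rab33b (0.75 to 1.35), Rab6b (0.32 to 1.06) and Rab8a (0.46 to 1.16) passed the limit after the removal but not as deposited. Rab33b also passed it after centring alone (1.05) and with the TMM factor (1.13), whereas Rab6b and Rab8a did not. The sign of 6 genes turned from negative to positive: Rab2b, Rab7, Rab11b, Rab18, Rab22a (-0.81 to 0.17) and Rab30 (-0.45 to 0.92). For Rab2b, Rab7, Rab11b and Rab18 centring alone turned the sign as well. The part of transcript length in each gene's difference was not tested.

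**Figure D4:**
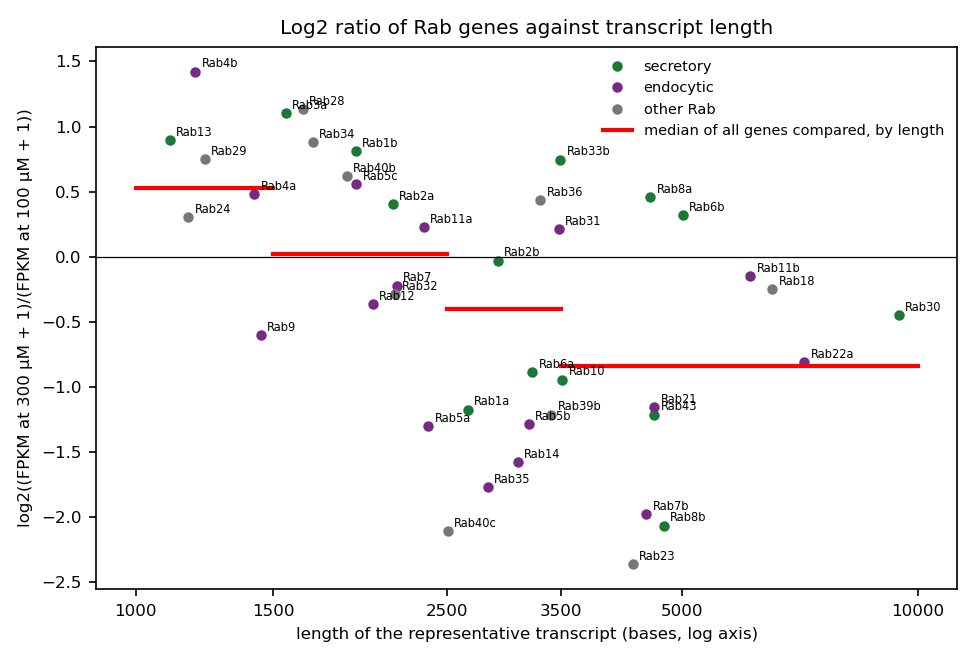
Log2 ratio of each compared Rab gene against the length of its representative GENCODE M21 transcript in bases, on a log axis, with medians of all compared genes in 4 length classes (red lines). Genes under 1500 bases lie mostly above 0 (5 of 6), and those from 2500 to below 3500 bases mostly below (8 of 11).

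Promoters were compared for the Rab5 and Rab8 genes, because close relatives there lay apart. RefSeq start sites of GRCm38.p6 were matched for 48 of the 59 genes, 35 of them compared. The 250 bases before the start are printed on the gene's strand, with motifs in capitals on either strand: the CCAAT box (CCAAT or ATTGG), the GC box (GGGCGG or CCGCCC), the CACGTG E-box bound by TFEB and related factors, and the cAMP response element (TGACGTCA). The TATA box (TATAAA or TTTATA) and an unfolded protein response element (TGACGTGG or CCACGTCA) were searched as well, and no marked motif overlaps another.
Rab5a, chr17:53478984-53479233, plus strand: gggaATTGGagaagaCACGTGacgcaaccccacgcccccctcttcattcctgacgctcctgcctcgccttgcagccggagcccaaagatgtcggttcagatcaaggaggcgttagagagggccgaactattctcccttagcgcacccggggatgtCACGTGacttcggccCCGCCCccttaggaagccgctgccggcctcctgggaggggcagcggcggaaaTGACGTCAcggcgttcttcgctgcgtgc
Rab5b, chr10:128696269-128696518, minus strand: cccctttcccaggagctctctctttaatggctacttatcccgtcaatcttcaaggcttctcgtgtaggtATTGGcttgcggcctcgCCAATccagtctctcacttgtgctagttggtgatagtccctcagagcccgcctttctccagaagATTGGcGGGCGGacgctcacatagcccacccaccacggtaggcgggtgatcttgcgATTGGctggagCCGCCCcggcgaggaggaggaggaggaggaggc
Rab5c, chr11:100738216-100738465, minus strand: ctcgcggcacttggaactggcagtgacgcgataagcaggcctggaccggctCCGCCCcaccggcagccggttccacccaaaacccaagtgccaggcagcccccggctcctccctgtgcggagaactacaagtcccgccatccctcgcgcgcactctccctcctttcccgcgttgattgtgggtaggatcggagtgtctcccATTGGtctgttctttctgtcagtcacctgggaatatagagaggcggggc
Rab8a, chr8:72160950-72161199, plus strand: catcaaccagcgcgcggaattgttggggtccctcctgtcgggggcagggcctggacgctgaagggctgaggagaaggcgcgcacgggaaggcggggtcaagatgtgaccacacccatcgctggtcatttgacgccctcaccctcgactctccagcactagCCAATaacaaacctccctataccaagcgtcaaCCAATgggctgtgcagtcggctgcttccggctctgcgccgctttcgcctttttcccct
Rab8b, chr9:66919706-66919955, minus strand: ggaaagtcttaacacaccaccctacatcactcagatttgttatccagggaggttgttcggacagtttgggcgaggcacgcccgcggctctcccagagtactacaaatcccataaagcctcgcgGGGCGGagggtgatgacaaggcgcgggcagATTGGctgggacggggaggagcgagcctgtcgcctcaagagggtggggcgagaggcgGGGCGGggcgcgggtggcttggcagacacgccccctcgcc
The Rab5a window held 2 E-boxes and 1 cAMP response element, and the windows of Rab5b and Rab5c held 0 of either. The Rab8b window held 2 GC boxes and that of Rab8a 0. Over the 35 compared Rab genes with a window, 3 held the E-box (Rab5a, Rab21 and Rab23, all lower at 300 µM), or 8.57% beside 8.81% of 8238 windows of all compared genes. A GC box was present in 10 of 11 windows of lower Rab genes, 2 of 3 of higher ones and 13 of 21 of those between, and in 63.4% of all windows. The CCAAT box was present in 19 of 35 and in 37.2% of all windows, and the cAMP response element in 1 of 35 and in 2.97%. The TATA box was present in 2 of 35 and in 5.88% of all windows, and the unfolded protein response element in 0 of 35 and in 0.777%. A match is a description of the letters and not a bound site.

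The machinery that serves all Rab proteins was described from lists of textbook members. Of 8 genes of prenylation and membrane cycling 1 was higher (12.5%) and 2 lower (25%), beside 6.09% and 29.8% of all genes (median -0.17). After centring 2 were higher and 2 lower, beside 14.5% and 22.3% of all genes. Gdi2, which encodes a GDP dissociation inhibitor, stood at 133.4 and 157.1 FPKM (0.23, a sign that turns on the scale of equal sums). Rabggta, the alpha subunit of the enzyme that adds the geranylgeranyl lipid, stood at 3.58 and 12.2 FPKM (1.52), whereas its beta subunit gene Rabggtb stood at 23.96 and 19.3 FPKM (-0.30). The escort protein genes Chm and Chml stood at 4.08 and 3.93 FPKM (-0.04) and at 3.0 and 0.37 FPKM (-1.55), and with the TMM factor the signs of Rabggtb and Chm turn. Rabif, a small protein that binds nucleotide-free Rab proteins, stood at 16.4 and 2.96 FPKM (-2.13).

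Of 36 GEF genes compared 4 were higher (11.1%) and 11 lower (30.6%), beside 6.09% and 29.8% of all genes (median -0.56). After centring 6 were higher and 7 lower, beside 14.5% and 22.3% of all genes. Rabgef1, the Rab5 exchange factor also called Rabex-5, was lowest at 26.4 and 2.64 FPKM (-2.91). Next were Rin2, a Rab5 GEF (-1.76), and Mon1b, a subunit of the Rab7 GEF (-1.67). Dennd1a, a Rab35 GEF, stood at 0.64 and 5.14 FPKM (1.90), and Trappc6a and Sbf2 had 1.10 and 1.08. Of 29 GAP genes 3 were higher (10.3%) and 8 lower (27.6%), beside 6.09% and 29.8% of all genes (median -0.43). After centring 4 GAP genes were higher and 5 lower, beside 14.5% and 22.3% of all genes. Tbc1d10b, a Rab35 GAP, stood at 18.5 and 2.76 FPKM (-2.37), Tbc1d14 had -2.22 and Tbc1d20, a Rab1 GAP, -2.13. Tbc1d22a, Tbc1d5 and Tbc1d7 were the 3 higher, at 2.10, 1.88 and 1.06. Dennd1a, Tbc1d22a and Tbc1d5 were below 1 FPKM at 100 µM and Mon1b at 300 µM, so they were compared only through the library where they were high; Chml, Plekhm2 and Gcc2 were likewise below 1 FPKM at 300 µM.

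Endocytic effectors had 2 of 30 higher (6.67%) and 10 lower (33.3%), beside 6.09% and 29.8% of all genes (median -0.44). After centring 4 were higher and 10 lower, beside 14.5% and 22.3% of all genes. Micall1, of tubular recycling endosomes, stood at 15.03 and 1.98 FPKM (-2.43), Rbsn, the Rab5 effector rabenosyn-5, at 20.7 and 3.39 FPKM (-2.30), and Plekhm2 at 8.59 and 0.98 FPKM (-2.28). Osbpl1a, which senses cholesterol on late endosomes with Rab7, and Vps41, of the late endosomal HOPS complex, were the 2 higher, at 1.11 and 1.04. Secretory effectors had 1 of 16 higher (6.25%) and 2 lower (12.5%), beside 6.09% and 29.8% of all genes (median -0.23). After centring 3 secretory effectors were higher and 0 lower, beside the same 14.5% and 22.3%. Exoc6b, of the exocyst that tethers exocytic vesicles, stood at 1.39 and 7.11 FPKM (1.76), and Bicd2, the dynein adaptor that binds Rab6, at 21.1 and 9.20 FPKM (-1.12). The GRIP-domain golgin gene Gcc2 had -1.06. Over all 118 compared genes of these lists 11 (9.32%) were higher and 33 (28.0%) lower, beside 6.09% and 29.8% of all genes. After centring 19 of the 118 were higher and 24 lower.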

How the data were processed

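For each library the authors deposited gene values in FPKM, given to 2 decimals. The submitters' processing notes name Bowtie2 and RSEM without a version. Build and annotation behind these values: not given in the sources used here. NCBI gene numbers were turned into symbols with RefSeq genes of GRCm38.p6 (17179 of 17215) and GENCODE release M21 (6 more). Lengths, 3' UTRs, GC content and shared 50-base words came from 1 representative GENCODE M21 transcript per gene, a principal coding one where marked. Promoters came from RefSeq, GRCm38.p6.

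The log2 ratio used a pseudocount of 1, which understates the change of low genes, and required a mean of 1 FPKM or more. Depth was read from short genes with 1 annotated transcript, as the step at which the largest share of FPKM times length lay near whole reads. It was 54 bases at 100 µM (64.8% of 91 such values lay within 0.12 of a whole read) and 51.5 bases at 300 µM (62.1% of 66). Evenly spread values would give 24% at a fixed step. Because the best of many steps was kept, the percentages found are raised and the 24% is not a strict comparison. The exact 95% binomial intervals of estimated reads reflect only counting error, as PCR copies are not separate molecules. The script was tested on simulated data with known changes.

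Secretory and endocytic classes, pathway lists and markers came from textbook knowledge. The members and lists were chosen with earlier results of these data known. Every Rab gene may be named. Of each pathway list up to 3 genes per direction with the largest ratio are named among those higher or lower, plus genes named whatever their values: Gdi2, Chm, Chml, Rabggta, Rabggtb and 1 other, which is not reported here. Alternatives were pseudocounts of 0.1 and 5, other filters and fold sizes, centring on the median gene, a TMM factor without weights (30% of the ratios and 5% of the levels trimmed on either side), equal sums, other classes, and removal of the trend with length and GC content. Python 3.11.15, numpy 2.4.6, pandas 2.3.3, scipy 1.17.1, Biopython 1.88 and matplotlib 3.10.9 were used.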

Additional observations from a re-analysis of the deposited data

How the results depend on the processing

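No paired analysis was possible because there was 1 library per dose. A median was counted as moved at 0.1 or more, a count beyond 1.5 times and a share at 2 percentage points or more; 75 of the recomputed values did not move, 69 moved and 6 turned sign. A pseudocount of 0.1 moved none. The cause of the moves was not tested. Depth limits genes near 1 FPKM. Over all genes, the shares called higher and lower were computed only as deposited and after centring. Counts under the other settings therefore have no share of all genes beside them.

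Centring gave 8 Rab genes higher and 7 lower and turned their median to 0.078; 4 secretory genes were then higher and 1 lower (median 0.45), the endocytic median was -0.18, and the pathway lists had 19 higher and a median of -0.12. The TMM factor gave 8 and 7 with a median of 0.17, secretory 4 and 1 (0.46), endocytic 3 lower (-0.11), and pathway lists 20 higher (-0.095). Equal sums gave 1 Rab gene higher (median -0.59), secretory 0 higher and 5 lower with the median turned to -0.15, an endocytic median of -0.84, and pathway lists 5 higher (-0.72). A pseudocount of 5 gave 1 Rab gene higher, 0 secretory genes higher, pathway lists 2 higher and 13 lower (-0.27), and a difference of secretory minus endocytic medians of 0.47.

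Without the filter the medians were -0.014 (Rab), -0.22 (endocytic) and -0.30 (pathway lists), and the difference 0.28. At a mean of at least 10 FPKM 7 Rab genes were lower, secretory 0 higher and 1 lower (0.43), pathway lists 3 higher and 9 lower (-0.31), and the difference 0.92. With at least 1 FPKM in both libraries, a filter chosen after seeing the data, 0 secretory genes were higher, the endocytic median was -0.37 and the difference 0.51. At 1.5-fold 9 Rab genes were higher, secretory 4 higher and 5 lower, and pathway lists 20 higher. At 3-fold 0 Rab genes were higher and 5 lower, secretory 0 and 1, endocytic 0 and 2, and pathway lists 4 and 16.

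Narrow classes gave 1 secretory gene lower (0.41) and 2 endocytic genes lower (-0.15), and turned the change of the endocytic share to 1.34 percentage points. Leaving out Rab1b and Rab7 turned that of the secretory share to -0.80. Counting Rab8a, Rab8b, Rab10 and Rab13 as endocytic moved none of these values. Removing the trend with length and GC content gave 6 Rab genes higher and 5 lower and turned the median to 0.40, with secretory 4 and 1 (0.67), endocytic 2 lower (-0.072) and a difference of 0.75.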
